A study of Mus musculus with 12 samples.

Results

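Proteasome genes were described across mouse blood stem cells and granulocyte and macrophage precursors, with and without the leukaemia fusion MLL-ENL. The members were the protein-coding genes whose GENCODE M21 symbol begins with Psma, Psmb, Psmc, Psmd, Psme, Psmf or Psmg, leaving out Psmb8, Psmb9 and Psmb10. This gave 47 of the 37614 genes with exon counts, and all 47 were among the 15711 genes that passed the filter on low counts. By role, 7 form the alpha ring of the core particle and 7 its beta ring, of which 3 (Psmb5, Psmb6, Psmb7) are catalytic. A further 6 are ATPases and 11 are non-ATPase subunits of the regulatory particle, 3 help to assemble that particle, 4 help to assemble the core, 5 are activators and 1 is an inhibitor. Psma8 and Psmb11 are subunits known from testis and thymus. Psmc3ip met the symbol rule but is a meiotic recombination factor, not a proteasome gene, and is counted among the 47.

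RNA was sequenced from 12 libraries in 4 groups of 3. Haematopoietic stem cells (HSC) were sorted as Lin-Sca1+ckit+CD48-CD150+ cells, and preGM as Lin-Sca1-ckit+ cells negative for CD150, CD105, CD41 and CD16/32. They came from mice labelled C57bl/6 WT (WT) or from the strain Col1a1-MLL/ENL (MLL-ENL), named for a fusion of MLL with ENL; its promoter is not named in the labels. Before RNA was taken, the sorted cells of every group spent 48 h in OptiMEM with 10% FCS and 3 cytokines: SCF at 10 to 50 ng/ml, and both G-CSF and IL3 at 5 ng/ml. Doxycycline (1 µg/ml) was in the medium of all 4 groups, WT too. There was no MLL-ENL library without doxycycline, so the fusion and other differences between the strains cannot be told apart. Whether a replicate is a separate animal or culture is not stated in the labels. In the fit over all 12 libraries, the p-values and SE rest on the spread among the 3 libraries of a group, pooled over all 4 groups. The spread within 1 group therefore weighs on the tests of the others, and it may be technical.

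The proteasome degrades proteins tagged with ubiquitin. Its core, the 20S particle, is a barrel of alpha rings outside and beta rings inside, and the beta rings carry the proteolytic sites. The 19S regulatory particle caps the barrel: its ATPases unfold the substrate and thread it into the core, and the non-ATPase subunits bind and remove ubiquitin. Other activators (Psme genes) open the barrel without ATP. In blood cells the inducible subunits Psmb8, Psmb9 and Psmb10 can replace Psmb5, Psmb6 and Psmb7, which gives the immunoproteasome. In stem cells, protein turnover has been studied as one of the processes that maintain them.

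WT HSC libraries held 14529767 to 18158165 gene counts and MLL-ENL HSC libraries 18980508 to 23453501. The preGM libraries were deeper, with 34741936 to 44493485 gene counts for WT and 38466380 to 50326122 for MLL-ENL. Levels below are CPM, counts per megacount after TMM scaling, and are listed in the order of replicates 1, 2 and 3. Defining markers fitted the sorts: 6 HSC markers (Ly6a, Kit, Slamf1, Procr, Mecom, Hlf) summed to 440 to 672 CPM in HSC and 53 to 125 in preGM, and 4 myeloid precursor markers (Mpo, Elane, Prtn3, Ctsg) to 216 to 396 and 10837 to 25210. Each sum also differed between the genotypes in its own cell type. In HSC, the HSC markers summed to 440 to 474 CPM in WT and 601 to 672 with MLL-ENL. Ly6a, Procr and Mecom were higher with MLL-ENL in every library, Hlf was lower, and Kit and Slamf1 overlapped. In preGM, the precursor markers summed to 23053 to 25210 CPM in WT and 10837 to 15275 with MLL-ENL. Elane, Prtn3 and Ctsg were lower in every library, and Mpo overlapped. Kit was in both sort gates. Other cell markers differed between groups too. In preGM, the summed level of 5 late neutrophil markers was 3361 to 5259 CPM for WT and 6.53 to 17 with MLL-ENL, and each of the 5 was lower with MLL-ENL in every library. The sum of 4 mast cell and basophil markers in preGM was 1277 to 2007 CPM for WT and 179 to 279 with MLL-ENL, where Mcpt8 and Cpa3 were lower in every library and Fcer1a and Ms4a2 overlapped. In HSC, 3 megakaryocyte markers summed to 497 to 643 CPM in WT and 111 to 153 with MLL-ENL. Pf4 made that difference (422 to 565 CPM in WT, 30.8 to 67.9 with MLL-ENL), while Itga2b overlapped and Gp9 was higher in every MLL-ENL HSC library (46.7 to 50.2 CPM against 31.6 to 41.9). The part of these cells in the results below was not tested. In bulk RNA, fewer cells of a type and less RNA per cell cannot be told apart.

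Within the HSC groups the members were alike between replicates: a member in one HSC library differed from the mean of the other libraries of its group by a median of 0.09 to 0.14 on the log2 scale. Of the preGM libraries, 2 stood apart in opposite ways, and every preGM result below rests partly on them. WT preGM replicate 2 held the 14 core genes at a summed 22277 CPM, against 16015 and 14554 in replicates 1 and 3, but the 17 genes of the regulatory particle at 3105 against 8262 and 8255. All 6 ATPases were lower there, by a median log2 ratio of -1.89, while all 7 beta ring genes were higher. MLL-ENL preGM replicate 1 held the core at 7018 CPM, against 15896 and 14615, and the regulatory particle at 6726 against 8504 and 8100. In that library Psmd2 had 525 CPM against 135 and 162, and Psmd5 had 191 against 39.1 and 33.8.

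**Figure D1:**
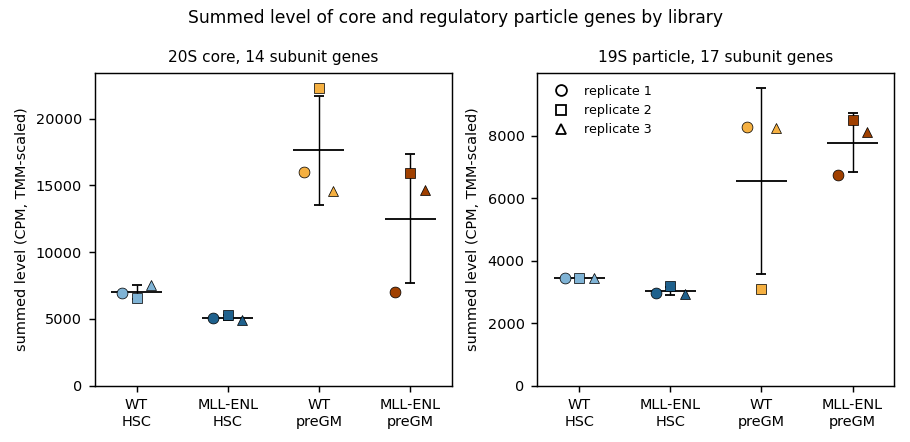
Summed level of the 14 core genes (left) and the 17 regulatory particle genes (right) in CPM, 1 point per library with the group mean and SD (n = 3). The HSC libraries lie close together, WT preGM replicate 2 is highest for the core at 22277 CPM and lowest of the preGM libraries for the regulatory particle at 3105, and MLL-ENL preGM replicate 1 is lowest of the preGM libraries for the core at 7018.

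The same libraries split the members by the length of their mRNA. In WT preGM replicate 2 the 10 members with an mRNA under 1000 bases were all higher than in the other WT preGM libraries (median log2 ratio 0.83), and the 18 members of middle length (1291 to 2148 bases) had a median of -1.30. In MLL-ENL preGM replicate 1 all 10 of the shortest members were lower (median -1.23), as were the next 10 by length (1036 to 1239 bases, median -0.98), and 5 of the 9 longest members (2597 bases and over) were higher. Protein-coding genes at large moved with length in these libraries too: those under 1000 bases had medians of 0.75 and -1.13 in the 2 libraries, and those in the class of middle length had -0.39 and -0.12. Core genes have short mRNAs (766 to 2846 bases, median 1039) and regulatory particle genes longer ones (1316 to 3112, median 1599), so role and length largely go together. Their ranges overlap at the longest core gene, Psma3 (2846 bases). Psma3 had log2 ratios of 0.44 in WT preGM replicate 2 and -1.07 in MLL-ENL preGM replicate 1. The regulatory genes Psmd11 (2848 bases), Psmd2 (2961) and Psmd1 (3112) had -2.14, -0.12 and 0.34, and -0.49, 1.82 and 1.21. The part of each was not tested.

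**Figure D2:**
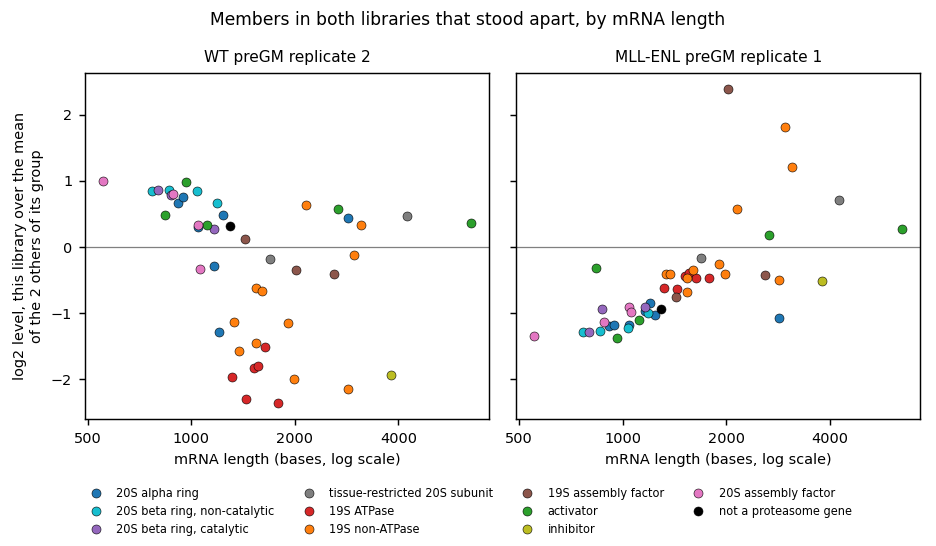
Each point is 1 of the 47 members, with its mRNA length in bases on a log axis and the log2 ratio of its level in the named library to the mean of the 2 other libraries of the group; colours mark roles. On the left (WT preGM replicate 2) the shortest mRNAs lie above 0 and the ATPases between -2.36 and -1.51; on the right (MLL-ENL preGM replicate 1) the 14 core genes lie between -1.28 and -0.85.

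Most of the members' calls lay between the cell types. In WT, 24 of the 47 members (51.1%) were higher in preGM than in HSC at an adjusted p under 0.05, against 18.4% of all genes tested, and 1 was lower, Psma8, against 20.1% of all genes. With MLL-ENL, 34 members (72.3%) were higher, against 20.4% of all genes, and none was lower, against 21.1%. None was lower there at an unadjusted p under 0.05 either (25.4% of all genes), nor with DESeq2 (22.9%). The median log2 change of the members was 0.93 in WT and 1.20 with MLL-ENL, where the median of all genes was -0.03 and 0.00. These 2 comparisons use different libraries. Short mRNAs were higher in preGM at large. Protein-coding genes under 1000 bases had medians of 0.82 in WT and 0.48 with MLL-ENL, and members of that length 1.33 and 1.28. In the next class by length these medians were 0.53 and 0.33, and 0.86 and 1.21. In the class of middle length they were 0.21 and 0.16, and 0.94 and 1.17. For the longest mRNAs they were -0.29 and -0.14, and 0.45 and 1.02. The part of mRNA length was not tested. Levels in all 3 preGM libraries lay above all 3 HSC libraries for 27 members in WT (23.6% of all genes did so) and for 36 with MLL-ENL (25.9%).

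The change depended on the scaling. The members together held 1.42% of gene counts in WT HSC (SD 0.00878, n = 3), 1.28% (SD 0.0427) in MLL-ENL HSC, 1.92% (SD 0.129) in WT preGM and 1.98% (SD 0.31) in MLL-ENL preGM. With library size alone in place of TMM, 8 members were higher in WT preGM (7.57% of all genes) and 11 in MLL-ENL preGM (7.75%), with member medians of 0.25 and 0.61. The members that kept the call in both comparisons were Psma2, Psma3, Psma5, Psma7, Psmb3, Psmb7 and Psmg3. Psmb2 kept it in WT, and Psma4, Psmc6, Psmd14 and Psmg2 kept it with MLL-ENL. The other 16 of 24 calls in WT and 23 of 34 with MLL-ENL were lost, those of Psmb6 in both and of Psmb5 and Psmd14 in WT among them. That scaling moved the median of all genes to -0.73 and -0.56, so relative to all genes the members lay 0.98 and 1.17 higher, against 0.96 and 1.20 with TMM. Without the 2 libraries that stood apart, 37 members were higher in WT (25.6% of all genes) and 40 with MLL-ENL (25.1%), and the 1 lower member was Psma8 in WT (25.3% of all genes) and Psmd5 with MLL-ENL (26.5%).

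**Figure D3:**
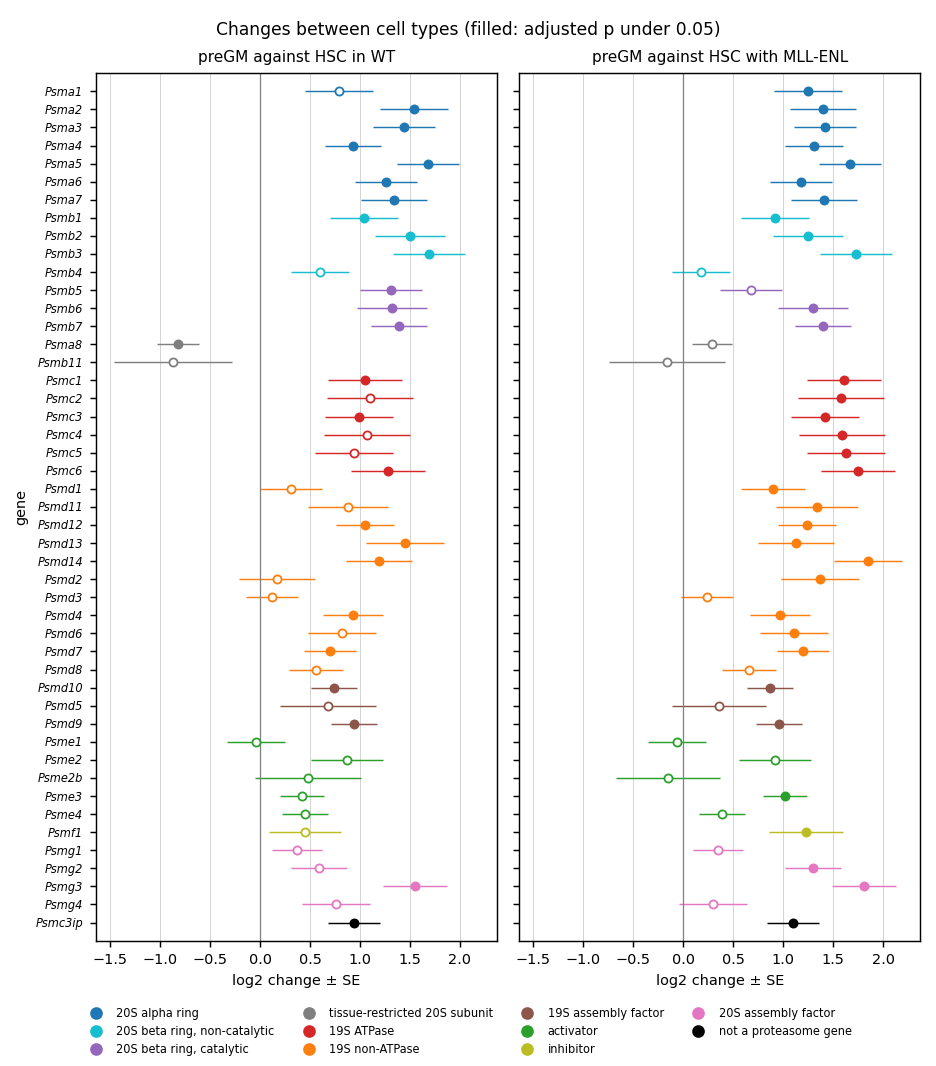
Log2 change from HSC to preGM (x axis, with SE) of each of the 47 members (y axis), in WT on the left and with MLL-ENL on the right; filled points passed an adjusted p of 0.05 and colours mark roles. Most members lie above 0, with 24 filled on the right of 0 in WT and 34 with MLL-ENL; Psma8 is the filled point below 0 in WT.

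All 7 alpha ring genes, which form the outer rings and the gate of the barrel, lay higher in preGM, and 6 of them rose in WT and 7 with MLL-ENL. Psma5 (chromosome 3, 108256926 to 108279974, GRCm38) had 408, 388 and 442 CPM in WT HSC, 294, 328 and 301 in MLL-ENL HSC, 1236, 1641 and 1101 in WT preGM, and 579, 1223 and 1126 in MLL-ENL preGM. Every preGM library lay above every HSC library for this gene. Its log2 change was 1.68 ± 0.31 in WT (SE, adjusted p = 0.000483, edgeR) and 1.67 ± 0.31 with MLL-ENL (adjusted p = 0.000544). Psma2 (chromosome 13, 14613240 to 14674236) had 569, 509 and 627 CPM in WT HSC, 388, 410 and 390 in MLL-ENL HSC, 1421, 2270 and 1280 in WT preGM, and 572, 1356 and 1214 in MLL-ENL preGM. MLL-ENL preGM replicate 1 lay inside the WT HSC range but above every MLL-ENL HSC library. The log2 changes of Psma2 were 1.54 ± 0.34 (adjusted p = 0.00204) and 1.40 ± 0.33 (adjusted p = 0.00369). Psma3 (chromosome 12, 70974621 to 70996347) had 726, 731 and 826 CPM in WT HSC, 565, 599 and 585 in MLL-ENL HSC, 1869, 2498 and 1807 in WT preGM, and 897, 1959 and 1820 in MLL-ENL preGM, with changes of 1.44 ± 0.31 (adjusted p = 0.00193) and 1.42 ± 0.31 (adjusted p = 0.00205). Psma1 is the alpha ring gene that did not pass in WT (log2 0.79 ± 0.34, adjusted p = 0.0769). WT preGM replicate 2 held it at 426 CPM, against 1073 and 1017.

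In the beta rings 6 of 7 genes rose in WT, all 3 catalytic ones among them, and 5 of 7 with MLL-ENL. Psmb3 (chromosome 11, 97703399 to 97713500), a structural beta subunit, had 399, 397 and 513 CPM in WT HSC, 276, 284 and 227 in MLL-ENL HSC, 1188, 2005 and 1042 in WT preGM, and 446, 1127 and 1044 in MLL-ENL preGM. It rose by a log2 of 1.69 ± 0.36 in WT (adjusted p = 0.00166) and 1.73 ± 0.36 with MLL-ENL (adjusted p = 0.00138). Psmb4 did not pass in either (0.60 ± 0.29, adjusted p = 0.118, and 0.18 ± 0.29, adjusted p = 0.647).

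Of the catalytic subunits, Psmb5 carries the chymotrypsin-like site, Psmb6 the caspase-like site and Psmb7 the trypsin-like site. Psmb5 (chromosome 14, 54614119 to 54618022; 12.5% of its exon bases are shared with other genes) had 245, 203 and 243 CPM in WT HSC, 187, 224 and 197 in MLL-ENL HSC, 494, 789 and 425 in WT preGM, and 201, 408 and 366 in MLL-ENL preGM. It rose in WT (log2 1.31 ± 0.31, adjusted p = 0.00367). With MLL-ENL its change was 0.68 ± 0.31 and missed the threshold (adjusted p = 0.0844), where replicate 1 lay inside the HSC range. Without the 2 libraries that stood apart it passed there too (log2 0.94, adjusted p = 1.59e-05). Psmb6 (chromosome 11, 70525367 to 70527858) had 417, 436 and 496 CPM in WT HSC, 337, 315 and 303 in MLL-ENL HSC, 943, 1599 and 823 in WT preGM, and 400, 1027 and 922 in MLL-ENL preGM. It rose by 1.32 ± 0.35 (adjusted p = 0.00748) and 1.30 ± 0.35 (adjusted p = 0.00782). Psmb7 (chromosome 2, 38588036 to 38644087) had 234, 196 and 251 CPM in WT HSC, 143, 175 and 174 in MLL-ENL HSC, 592, 668 and 518 in WT preGM, and 275, 509 and 515 in MLL-ENL preGM. It rose by 1.39 ± 0.28 (adjusted p = 0.00117) and 1.40 ± 0.28 (adjusted p = 0.00106), and its preGM and HSC libraries did not overlap. Pseudogenes of all 3 exist, so reads of similar sequence could be assigned to a copy.

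The ATPases, which unfold the substrate, all lay higher in preGM: 3 of 6 rose in WT and 6 of 6 with MLL-ENL. Psmc4 (chromosome 7, 28041707 to 28050101) had 268, 286 and 279 CPM in WT HSC, 243, 260 and 237 in MLL-ENL HSC, 830, 161 and 760 in WT preGM, and 542, 895 and 787 in MLL-ENL preGM. WT preGM replicate 2 lay below every HSC library. The WT change was 1.07 ± 0.43 (adjusted p = 0.0586), and without that library it was 1.52 (adjusted p = 0.000142). With MLL-ENL the change was 1.59 ± 0.43 (adjusted p = 0.00852). Psmc6 (chromosome 14, 45329788 to 45349705) had 215, 180 and 175 CPM in WT HSC, 167, 155 and 176 in MLL-ENL HSC, 574, 174 and 638 in WT preGM, and 462, 629 and 585 in MLL-ENL preGM. It rose by 1.28 ± 0.37 (adjusted p = 0.0121) and 1.75 ± 0.37 (adjusted p = 0.00167). The other ATPases ranged from 0.94 to 1.10 in WT and from 1.42 to 1.63 with MLL-ENL.

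Of the 11 non-ATPase subunits of the regulatory particle, 5 rose in WT and 9 with MLL-ENL, and all lay above 0 in both. Psmd14 (chromosome 2, 61711694 to 61800376), the deubiquitinase that cuts ubiquitin chains from the substrate, had 262, 239 and 243 CPM in WT HSC, 152, 173 and 177 in MLL-ENL HSC, 720, 262 and 713 in WT preGM, and 484, 686 and 643 in MLL-ENL preGM. It rose by 1.19 ± 0.33 in WT (adjusted p = 0.0102) and 1.85 ± 0.34 with MLL-ENL (adjusted p = 0.000519). Leaving out WT preGM replicate 1 ended the WT call (adjusted p = 0.0544). Psmd3 and Psmd8 passed in neither. Psmd2, a large scaffold subunit, passed with MLL-ENL (1.37 ± 0.39, adjusted p = 0.0106), where replicate 1 had 525 CPM and the others 135 and 162, against 101 to 109 in MLL-ENL HSC.

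The assembly factors were mixed. Psmg3 (chromosome 5, 139823592 to 139826885), one of the chaperones of the alpha ring, had 86.4, 86.7 and 110 CPM in WT HSC, 58, 58.7 and 51.4 in MLL-ENL HSC, 245, 388 and 198 in WT preGM, and 110, 244 and 238 in MLL-ENL preGM. It rose by 1.55 ± 0.32 (adjusted p = 0.00141) and 1.81 ± 0.32 (adjusted p = 0.000446). Psmg1 (chromosome 16, 95979933 to 95990960), its fellow chaperone, had 63.5, 68.8 and 72.7 CPM in WT HSC, 51.2, 59.5 and 65.1 in MLL-ENL HSC, 83.9, 103 and 78.8 in WT preGM, and 47.5, 96.7 and 80.5 in MLL-ENL preGM. Its changes of 0.37 ± 0.25 (adjusted p = 0.267) and 0.35 ± 0.25 (adjusted p = 0.28) did not pass. Of the 19S chaperones, Psmd9 and Psmd10 rose in both comparisons, by 0.94 ± 0.23 and 0.74 ± 0.23 in WT (adjusted p = 0.00418 and 0.0185) and by 0.96 ± 0.23 and 0.87 ± 0.23 with MLL-ENL (adjusted p = 0.00336 and 0.00766), and Psmd5 in neither.

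The activators stood nearer to 0 than the core genes, with medians of 0.45 in WT and 0.39 with MLL-ENL. Psme1 (chromosome 14, 55578123 to 55581529) and Psme2 (chromosome 14, 55587441 to 55591113) encode the 2 subunits of the interferon-inducible PA28 ring. Psme1 had 489, 447 and 475 CPM in WT HSC, 440, 480 and 417 in MLL-ENL HSC, 450, 528 and 392 in WT preGM, and 242, 529 and 507 in MLL-ENL preGM. It overlapped between the cell types (log2 -0.04 ± 0.29, adjusted p = 0.927, in WT and -0.06 ± 0.29, adjusted p = 0.878, with MLL-ENL). With library size alone Psme1 was lower in preGM (-0.76, adjusted p = 0.0114, and -0.69, adjusted p = 0.0201). Psme2 had 504, 464 and 525 CPM in WT HSC, 333, 396 and 342 in MLL-ENL HSC, 708, 1355 and 662 in WT preGM, and 326, 895 and 807 in MLL-ENL preGM. Its changes of 0.87 ± 0.36 (adjusted p = 0.0702) and 0.92 ± 0.36 (adjusted p = 0.0532) missed the threshold, and without the 2 libraries that stood apart they were 0.47 (adjusted p = 0.00181) and 1.26 (adjusted p = 2.45e-07). Psme3, the nuclear PA28 gamma, passed with MLL-ENL (1.02 ± 0.22, adjusted p = 0.00199) and not in WT (0.42 ± 0.22, adjusted p = 0.143). Psme4 (chromosome 11, 30771726 to 30880361), which encodes the large activator PA200, had 38.6, 54.2 and 53.3 CPM in WT HSC, 37.1, 49.2 and 48.6 in MLL-ENL HSC, 63.3, 78.6 and 58.1 in WT preGM, and 66.3, 52.1 and 58.2 in MLL-ENL preGM. It passed in neither comparison (0.45 ± 0.23, adjusted p = 0.131, and 0.39 ± 0.23, adjusted p = 0.183). Psme2b, a near copy of Psme2, stayed at or below 1.58 CPM, where reads of Psme2 could be assigned to it.

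The inhibitor Psmf1 (chromosome 2, 151715812 to 151744186; PI31) had 63.6, 58.9 and 68.2 CPM in WT HSC, 46.1, 52.4 and 44.3 in MLL-ENL HSC, 120, 30.2 and 111 in WT preGM, and 86.5, 124 and 123 in MLL-ENL preGM. It rose with MLL-ENL (1.23 ± 0.37, adjusted p = 0.0147), a call lost without MLL-ENL HSC replicate 1 (adjusted p = 0.0522) or replicate 3 (adjusted p = 0.0566). In WT its change was 0.45 ± 0.36 (adjusted p = 0.351), with replicate 2 below every HSC library, and without that library it was 0.86 (adjusted p = 0.00329).

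The stem cells of the 2 strains were compared next. With MLL-ENL, 42 of the 47 members lay lower in HSC, with a median log2 change of -0.30 where all genes had 0.02. All 14 core genes were negative, from -0.73 to -0.13. In the fit over all 12 libraries no member was called lower by edgeR (0.929% of all genes were), and 1 was called higher, Psma8 (3.19% of all genes). At an unadjusted p under 0.05, that fit had 2 members lower, Psme3 and Psmg3 (7.09% of all genes were lower), and DESeq2 called 0 lower (2.91% of all genes).

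The HSC libraries themselves separated more clearly than that fit. In 27 of 47 members (57.4%) all 3 MLL-ENL HSC libraries lay below all 3 WT HSC libraries, against 17% of all genes. This held for all 7 alpha ring genes, 5 of the 7 beta ring genes and 5 of the 6 ATPases, but for 3 of the 11 non-ATPase subunits. In 3 members (Psma8, Psmd13 and Psmd5) all MLL-ENL HSC libraries lay above all WT HSC libraries, as in 2798 of the 15711 genes tested. Fitted with the 6 HSC libraries alone, edgeR called 20 members lower (42.6%, against 8.69% of all genes) and 3 higher (8.99% of all genes), and without the 2 preGM libraries that stood apart it called 23 lower (48.9%, against 11.1%) and 3 higher (10.2% of all genes). The 20 were all among the 23. They held all 7 alpha ring genes, 5 beta ring genes (Psmb1, Psmb2, Psmb3, Psmb6, Psmb7), the ATPases Psmc3 and Psmc5, Psmd14, Psme2, Psme3, Psmg2, Psmg3 and Psmc3ip. The log2 changes themselves were nearly equal in the 3 fits, with member medians of -0.30, -0.28 and -0.30.

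The gene with the lowest change was the assembly factor Psmg3, at 86.4, 86.7 and 110 CPM in WT HSC and 58, 58.7 and 51.4 with MLL-ENL. Its log2 change was -0.75 ± 0.32 (adjusted p = 0.213 over 12 libraries, 0.00245 over the HSC libraries alone). For Psmd14 (262, 239 and 243 CPM against 152, 173 and 177) it was -0.57 ± 0.33 (adjusted p = 0.378 and 0.00254), and for the structural subunit Psmb3 (399, 397 and 513 against 276, 284 and 227) -0.73 ± 0.35 (adjusted p = 0.279 and 0.00194). Among the catalytic subunits, Psmb6 had -0.50 ± 0.34 (adjusted p = 0.472 and 0.00554) and Psmb7 -0.47 ± 0.28 (adjusted p = 0.384 and 0.02). Psmb5 overlapped between the groups, at -0.19 ± 0.30 (adjusted p = 0.792). Psmc4 (-0.17 ± 0.42, adjusted p = 0.869), Psme1 (-0.08 ± 0.29, adjusted p = 0.92) and Psme4 (-0.12 ± 0.23, adjusted p = 0.831) were also small. The members called higher over the HSC libraries alone were Psma8, the non-ATPase subunit Psmd13 (0.51, adjusted p = 0.0209) and the assembly factor Psmd5 (0.89, adjusted p = 0.00274).

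By role, the median log2 change in HSC was -0.46 for the alpha ring, -0.45 for the structural beta subunits, -0.47 for the catalytic ones, -0.25 for the ATPases, -0.08 for the non-ATPase subunits, -0.36 for the core assembly factors and -0.12 for the activators. As a share of gene counts, which needs no TMM, the core genes held 0.819% (SD 0.0236, n = 3) in WT HSC and 0.681% (SD 0.0186) in MLL-ENL HSC, and the regulatory particle 0.402% (SD 0.0158) and 0.404% (SD 0.0142). With library size alone 29 of 47 members lay lower, with a median of -0.11 where all genes had 0.21. Short mRNAs were lower at large: protein-coding genes under 1000 bases had a median of -0.25 and members of that length -0.49. In the class of middle length, protein-coding genes had 0.13 and members -0.18. The part of mRNA length in the core's change was not tested.

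**Figure D4:**
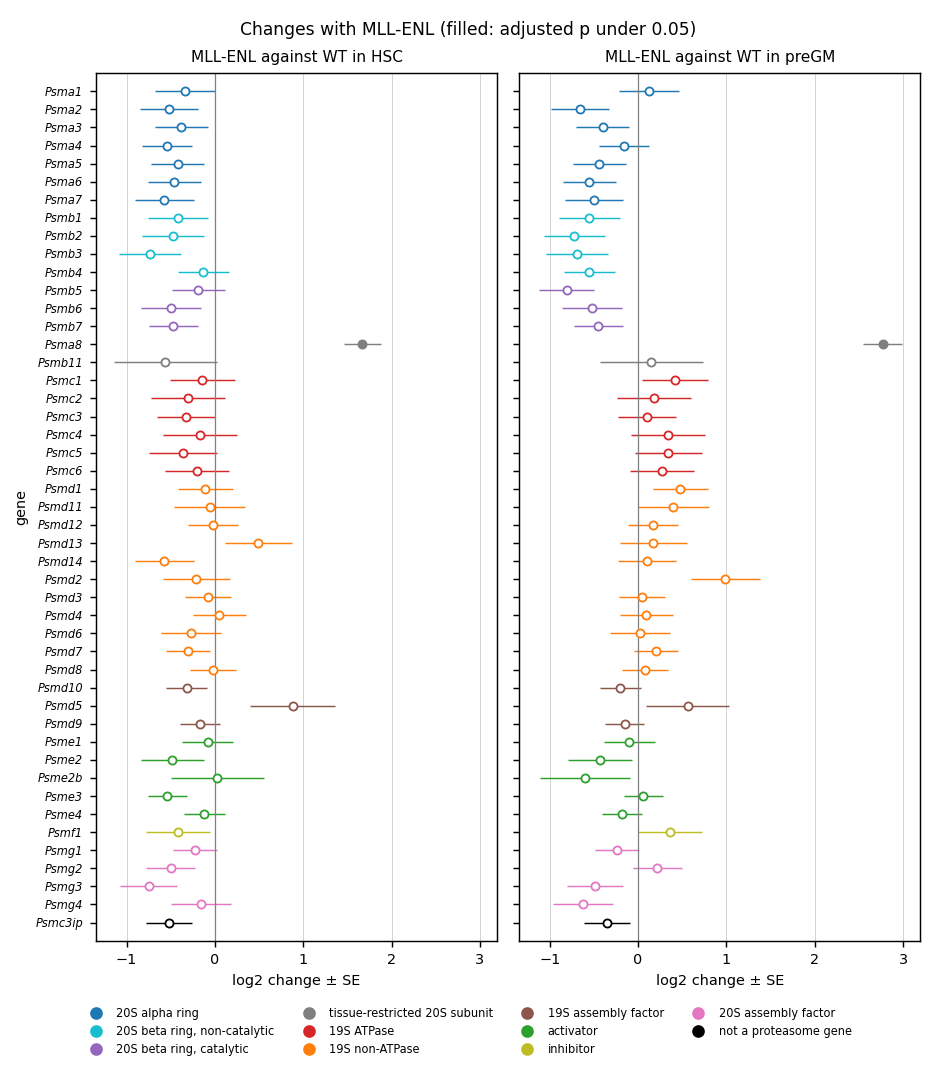
Log2 change with MLL-ENL (x axis, with SE, all 12 libraries in the fit) of each of the 47 members (y axis), in HSC on the left and in preGM on the right; filled points passed an adjusted p of 0.05 and colours mark roles. The filled point on each side is Psma8 (1.67 and 2.77); in HSC all 14 core genes lie below 0, and in preGM 13 of them do while all 17 regulatory particle genes lie above 0.

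In preGM the same question gave no shift of the members as a whole. Their median log2 change was 0.02 (all genes 0.08), 24 lay above 0 and 23 below, and Psma8 was the only one called (3.7% of all genes were called higher and 3.07% lower). At an unadjusted p under 0.05, 1 member lay lower (9.8% of all genes), and DESeq2 called 1 lower (5.08%), in both cases Psmb5. The core genes had a median of -0.53 and the regulatory particle 0.18. This split rested on the 2 libraries that stood apart: without them the medians were -0.01 and 0.06, and the core genes ranged from -0.25 to 0.14. Psmb5 had the lowest change (494, 789 and 425 CPM in WT, 201, 408 and 366 with MLL-ENL). Its log2 change of -0.81 ± 0.31 missed the threshold with edgeR (adjusted p = 0.13), passed with DESeq2 (adjusted p = 0.0492) and had no overlap between the groups. Without the 2 libraries that stood apart it was -0.25 (adjusted p = 0.368). The 1 member called lower without them was Psmd5 (-0.82, adjusted p = 0.0149; 3.62% of all genes), which had 0.56 with all 12 libraries.

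The difference between the responses was tested as an interaction, the preGM response minus the HSC response. No member passed with edgeR over all 12 libraries (1.08% of all genes were called higher and 2.06% lower), 2 members had an unadjusted p under 0.05 in the higher direction and 0 in the lower (7.78% and 8.45% of all genes). DESeq2 called 1 higher, Psma8, and 0 lower (2.48% and 4.23% of all genes). Without the 2 libraries that stood apart, which leaves 2 libraries in each preGM group, 13 members were called higher (27.7%, against 6.73% of all genes) and 1 lower (5.45% of all genes). The 13 held 6 core genes (Psma3, Psma4, Psma7, Psmb1, Psmb3, Psmb6), Psmc5, Psmd14, Psme2, Psme3, Psmg2, Psmg3 and Psma8, with log2 values from 0.42 for Psma3 to 1.10 for Psma8. The 1 lower member was Psmd5 (-1.70, adjusted p = 0.000541). The direction for the core follows from the values above: with these libraries left out it lay lower in MLL-ENL HSC and near 0 in MLL-ENL preGM.

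Psma8 (chromosome 18, 14706151 to 14762301, plus strand), an alpha subunit known from the testis proteasome, was called higher with MLL-ENL in both cell types. It had 9, 8.11 and 9.29 CPM in WT HSC, 29.2, 29.7 and 24.8 in MLL-ENL HSC, 5.58, 4.56 and 4.78 in WT preGM, and 31.7, 34.8 and 35.8 in MLL-ENL preGM. The 2 genotypes did not overlap, and neither of the libraries that stood apart elsewhere did so here. The log2 change was 1.67 ± 0.21 in HSC (3.17-fold, adjusted p = 0.000396) and 2.77 ± 0.22 in preGM (6.84-fold, adjusted p = 8.39e-07). It kept its call in every alternative run in both cell types. The difference between the responses was 1.11 ± 0.29, with an adjusted p of 0.0509 by edgeR, 0.00354 by DESeq2 and 0.00869 without the 2 libraries. In WT, Psma8 was lower in preGM than in HSC (log2 -0.82 ± 0.21, adjusted p = 0.00623), the opposite of most members, and with MLL-ENL the cell types did not pass (0.29 ± 0.20, adjusted p = 0.266).

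The reads of Psma8 came from the whole transcript. Each of its 7 exons had more reads per megacount in every MLL-ENL library than in every WT library of the same cell type. The fold per exon ran from 2.57 (exon 7, 953 bases) to 9.43 (exon 1, 182 bases) in HSC and from 4.49 to 9.49 in preGM. Exon 1 had 1, 7 and 2 counts in WT HSC and 44, 31 and 58 in MLL-ENL HSC, so its fold rests on few reads. Even so the level stayed far under that of the alpha ring genes. Per length, as the authors' RPKM of the principal transcript, Psma8 averaged 5.75 in WT HSC and 20.3 in MLL-ENL HSC. The lowest alpha ring gene there, Psma3, averaged 294 and 249. Psmb11, the thymus beta subunit, had at most 1.22 CPM and no call.

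**Figure D5:**
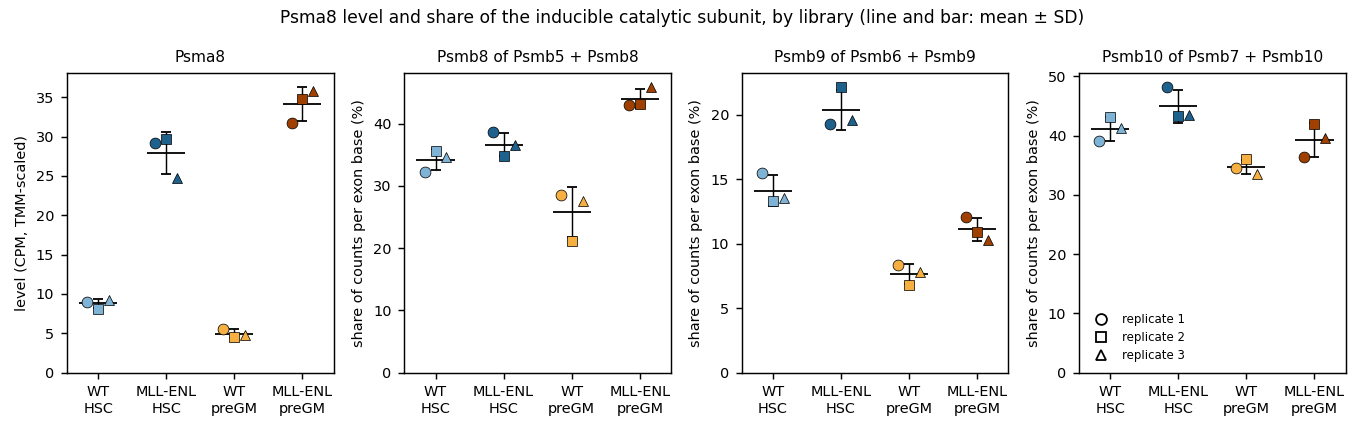
Psma8 level in CPM (first panel) and the share of the inducible subunit in each catalytic pair in percent (the other panels), 1 point per library with the group mean and SD (n = 3). Psma8 lies between 24.8 and 35.8 CPM in the MLL-ENL libraries and between 4.56 and 9.29 in WT; the share of Psmb8 is lowest in WT preGM (21.2 to 28.6%) and highest in MLL-ENL preGM (43 to 45.8%).

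The inducible counterparts of the catalytic subunits were read beside the members. Psmb8 (chromosome 17, 34197721 to 34201454) had 366, 351 and 404 CPM in WT HSC, 369, 375 and 355 in MLL-ENL HSC, 621, 665 and 507 in WT preGM, and 476, 973 and 968 in MLL-ENL preGM. It rose from HSC to preGM with MLL-ENL (1.14 ± 0.29, adjusted p = 0.00553) and did not pass in WT (0.68 ± 0.29, adjusted p = 0.0736). Without the 2 libraries that stood apart it passed in WT too (0.60, adjusted p = 0.000266), and with library size alone it passed in neither (0.51, adjusted p = 0.0628, with MLL-ENL). Psmb10 had 156, 155 and 184 CPM in WT HSC, 138, 140 and 139 in MLL-ENL HSC, 328, 393 and 273 in WT preGM, and 164, 383 and 354 in MLL-ENL preGM. It rose in both (1.01 ± 0.30, adjusted p = 0.0139, and 1.11 ± 0.30, adjusted p = 0.00759), and with library size alone it passed in neither (0.29, adjusted p = 0.312, and 0.48, adjusted p = 0.105). Leaving out WT HSC replicate 1 (adjusted p = 0.0533) or 2 (adjusted p = 0.0532) ended its call in WT. Psmb9 lay between 102 and 234 CPM and overlapped between the groups in every comparison. It was called in none with all 12 libraries. Without the 2 libraries that stood apart it passed with MLL-ENL in preGM (0.58, adjusted p = 0.0225, against 0.08) and from HSC to preGM with MLL-ENL (0.52, adjusted p = 0.00383, against 0.23). With MLL-ENL in preGM, Psmb8 changed by 0.43 ± 0.29 (adjusted p = 0.371), and without the 2 libraries that stood apart by 0.78 (adjusted p = 0.000656).

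A share within a pair, counted per exon base in the same library, does not depend on the scaling between libraries. It could still move with mRNA length, as levels did in the 2 libraries that stood apart and in HSC. The inducible subunit has the longer mRNA in each pair. The lengths in bases are 1628 for Psmb8 and 871 for Psmb5, 1351 for Psmb9 and 798 for Psmb6, and 1270 for Psmb10 and 1160 for Psmb7. The part of mRNA length in the shares was not tested. The share of Psmb8 in Psmb5 + Psmb8 was 32.3, 35.6 and 34.6% in WT HSC, 38.6, 34.8 and 36.5% in MLL-ENL HSC, 28.6, 21.2 and 27.6% in WT preGM, and 43, 43.2 and 45.8% in MLL-ENL preGM. It was thus higher with MLL-ENL in every preGM library, by 18.20 percentage points on average (exact permutation test, two-sided, p = 0.1, the smallest that 3 against 3 allows). From HSC to preGM it was lower by 8.40 points in WT and higher by 7.33 points with MLL-ENL, without overlap in either (exact p = 0.1 each). The share of Psmb9 in Psmb6 + Psmb9 averaged 14.1% (SD 1.22), 20.3% (SD 1.51), 7.63% (SD 0.773) and 11.1% (SD 0.893) in the same order (n = 3). That of Psmb10 in Psmb7 + Psmb10 averaged 41.1% (SD 2.05), 44.9% (SD 2.74), 34.7% (SD 1.25) and 39.3% (SD 2.82). Of the 12 comparisons of shares, 11 had no overlap and an exact p of 0.1, or 0.109 after Benjamini-Hochberg adjustment over the 12; the other, Psmb8 in HSC, overlapped (exact p = 0.2). In every pair and both cell types the average share was higher with MLL-ENL. The level of a share depends on the length used: with the authors' RPKM of the principal transcript, the Psmb8 share in WT HSC was 46.5% in place of 34.2%.

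Levels between genes were compared per length, as the authors' RPKM of the principal transcript. In WT HSC Psma7 was the highest member at 1129 RPKM (SD 31.3, n = 3), followed by Psmb1 at 810 (SD 16.4), Psmb2 at 803 (SD 58.1) and Psmb6 at 776 (SD 56.3), where the last 3 did not differ beyond their spread. Subunits that are equal in number in the particle were not equal in RNA: Psmb4 stood at 158 RPKM (SD 10.2) and Psmb7 at 216 (SD 19.1). The ATPases lay closer together, between 127 (Psmc2) and 220 (Psmc5). Activators other than Psme1 and Psme2 were low, with Psme3 at 30.4 and Psme4 at 8.25 RPKM. In WT preGM Psma7 was again highest, at 1786 RPKM.

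Introns gave a further readout that the exon counts did not use. The members had 0.62, 0.73 and 0.545 intron counts per 100 exon counts in WT HSC, 1.14, 1.02 and 0.994 in MLL-ENL HSC, 0.218, 0.197 and 0.177 in WT preGM, and 0.685, 0.242 and 0.213 in MLL-ENL preGM. The HSC groups did not overlap, while MLL-ENL preGM replicate 1 stood apart from its group again. All genes moved the same way, with means of 3.93 (SD 0.199, n = 3), 5.40 (SD 0.583), 1.63 (SD 0.39) and 2.23 (SD 1.1) per 100 gene counts in the same order. The part of intron reads in the exon changes was not tested.

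Of 33 other proteasome and ubiquitin genes on a list, 32 were found, and 29 of them besides Psmb8, Psmb9 and Psmb10. In 15 of the 29 all 3 MLL-ENL HSC libraries lay below all 3 WT HSC libraries (17% of all genes), and in 1, Nfe2l1, above. edgeR over all 12 libraries called none with MLL-ENL in either cell type. At an unadjusted p under 0.05 it had 2 lower in HSC (7.09% of all genes) and 2 in preGM (9.8%), and DESeq2 called 0 lower in HSC (2.91%) and 1 in preGM (5.08%). Over the HSC libraries alone, 8 were called lower (8.69% of all genes) and 0 higher, and without the 2 libraries that stood apart 11 were called lower in HSC (11.1%) and 1 higher (10.2%). Pomp, the chaperone that completes the core, was among the lower ones (-0.48, adjusted p = 0.00854, and -0.49, adjusted p = 0.00541).

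From HSC to preGM, 9 of the 29 rose and 3 fell in WT (18.4% and 20.1% of all genes did so), and 11 rose and 1 fell with MLL-ENL (20.4% and 21.1%). The medians were 0.32 and 0.59, lower than those of the members. With library size alone, 8 of the 9 calls and 10 of the 11 were lost: Sem1 kept its call in WT and Usp14 with MLL-ENL. With TMM, several factors that bind the particle rose: Sem1, a small regulatory subunit (1.46 ± 0.37, adjusted p = 0.0055, in WT), the deubiquitinases Usp14 (1.29 ± 0.31, adjusted p = 0.00369) and Uchl5 (0.91 ± 0.26, adjusted p = 0.0128), and the ubiquitin receptor Adrm1 (0.96 ± 0.30, adjusted p = 0.02). All 4 passed with MLL-ENL too (1.01, 1.74, 1.20 and 0.89). Pomp had 1.09 ± 0.36 (adjusted p = 0.0257) and 1.07 ± 0.36 (adjusted p = 0.0261). Ufd1 (1.11 and 1.28), Nploc4 (0.75 and 0.67) and Ubqln1 (0.60 and 0.73), which deliver ubiquitinated proteins, passed in both with TMM. With library size alone none of these 3 passed in either, and Ubqln1 turned to -0.11 in WT.

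Many of these calls ended when 1 library was left out. Each of the 12 was left out in turn, and the calls of Usp14 and Ufd1 then held in every run in both genotypes. In WT, Sem1 and Nploc4 held too, Uchl5 was lost in 1 run (highest adjusted p 0.0558), Pomp in 3 (0.0921), Adrm1 in 4 (0.117) and Ubqln1 in 9 (0.119). With MLL-ENL, Uchl5 held, Nploc4 was lost in 1 run (0.0749), Ubqln1 in 2 (0.0781), Adrm1 in 4 (0.1), Pomp in 5 (0.127) and Sem1 in 5 (0.128). Rps27a, which passed in WT with all libraries (1.06), was lost in 7 runs, with the replicate block (adjusted p = 0.0583) and with library size alone (0.31, adjusted p = 0.383), and had 0.65 (adjusted p = 0.157) without WT preGM replicate 2. Ddi2 (0.70) and Uba1 (0.84) passed with MLL-ENL, but had 0.30 and 0.37 and no call without MLL-ENL preGM replicate 1, and were lost in 8 and 4 runs.

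Zfand5 fell in both (-1.31 ± 0.24, adjusted p = 0.000466, and -1.36 ± 0.24, adjusted p = 0.000345), at 72.4, 80.6 and 82 CPM in WT HSC and 27.9, 38.9 and 28 in WT preGM, and held in every run. The other genes called lower in WT were less stable. Ngly1 had -0.94 with exon counts summed to the gene and -0.11 (adjusted p = 0.891) with the longest transcripts, and was lost with the replicate block (adjusted p = 0.0577) and in 8 of the 12 runs. Uba6 had -1.06 and was lost in 4, without WT HSC replicate 1 or 3 or WT preGM replicate 1 or 3 (adjusted p up to 0.122). Nfe2l1, the transcription factor known for driving proteasome genes when degradation fails, lay between 13.7 and 29.8 CPM. In HSC it had 15.8, 17.5 and 13.7 CPM in WT and 26.9, 21.8 and 21.4 with MLL-ENL, without overlap. Its change there of 0.58 ± 0.25 missed the threshold over all 12 libraries (adjusted p = 0.222) and passed without the 2 libraries that stood apart (0.58, adjusted p = 0.0207). It was called in no other comparison.

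Since most members moved together between the cell types, their promoters were searched for letters known from proteasome and housekeeping promoters, on both strands of the 300 bases around each start (RefSeq, GRCm38.p6), for the 39 members with an entry. The antioxidant response element TGACNNNGC, which Nfe2l1 binds, was in 6 of 39 members (15.4%) and 14% of all genes in the table. The nuclear respiratory factor (NRF1) element, searched with 1 free base, was in 7 (17.9%) against 5.19%, CCAAT in 14 (35.9%) against 41.1%, and CACGTG in 3 (7.69%) against 8.09%. These matches are descriptions of letters and were not compared with a test. The 5 windows of 120 bases, each ending before the annotated start of its gene, show where such letters lie in catalytic, structural and regulatory members. Capitals mark the matches: the antioxidant response element in Psmb5 (chr14:54618023-54618142, minus strand; 47 bases before the RefSeq start) and Psmb6 (chr11:70525237-70525356, plus strand; 9 bases before), the respiratory factor element in Psma3 (chr12:70974501-70974620, plus strand) and, on the opposite strand, in Psmd14 (chr2:61711574-61711693, plus strand), and a pair of CCAAT boxes in Psmb3 (chr11:97703279-97703398, plus strand). None of the motifs overlaps another in these windows.
Psmb5: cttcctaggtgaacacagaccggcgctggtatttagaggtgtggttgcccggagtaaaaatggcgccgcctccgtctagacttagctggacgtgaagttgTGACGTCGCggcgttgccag
Psmb6: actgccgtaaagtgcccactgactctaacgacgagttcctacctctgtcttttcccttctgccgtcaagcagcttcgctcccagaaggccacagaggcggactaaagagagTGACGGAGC
Psma3: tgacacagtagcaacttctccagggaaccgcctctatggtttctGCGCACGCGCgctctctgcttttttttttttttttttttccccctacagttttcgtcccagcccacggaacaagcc
Psmd14: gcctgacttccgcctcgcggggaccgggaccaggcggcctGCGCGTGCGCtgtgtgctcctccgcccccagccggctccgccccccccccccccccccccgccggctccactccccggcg
Psmb3: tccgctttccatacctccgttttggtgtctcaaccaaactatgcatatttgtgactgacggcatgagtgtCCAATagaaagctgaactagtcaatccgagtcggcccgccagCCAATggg
Of the 6 members with the antioxidant response element, Psmb5 and Psmb6 rose in WT preGM (1.31 and 1.32). Psmc6, Psmd9 and Psmd12 rose there as well, and Psme4 did not pass (0.45, adjusted p = 0.131, edgeR). Psma3, Psmd14 and Psmb3, which lack that element in the bases searched, rose there too (1.44, 1.19 and 1.69). Of the 7 with the respiratory factor element, Psma2, Psma3, Psma4 and Psmd14 rose, and Psmc4, Psmc5 and Psmg1 did not pass. Whether any of these elements goes with the change was not tested.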

How the data were processed

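The 12 libraries were made from sorted, cultured cells with the SMARTer kit for low RNA input, per the labels' protocols. The submitters' processing notes name TopHat2 2.0.8, Bowtie2 2.1.0, HTSeq and edgeR, with no role or order. The authors' genome build: not given in the sources used here. Per the file headers, each deposited file gives a tag count and an RPKM value for every exon, intron and transcript; whether the counting used strand is not stated.

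Exon counts were summed to genes with the GENCODE M21 annotation (GRCm38): 95.8% of the transcripts matched by identifier, and 85.9% of those had identical exons. Between 1.23 and 3.2% of the counts per library could not be assigned and were left out. The authors' RPKM was used for levels per length and for shares of the principal transcript, and in no test of genes. The RPKM in the limma runs below was computed from the gene counts. Genes were filtered with filterByExpr (minimum count 10, minimum total 15), scaled by TMM and tested with edgeR 4.0.16 (robust quasi-likelihood, R 4.3.3) in 1 fit of 12 libraries with 4 group means. P-values were Benjamini-Hochberg adjusted over 15711 genes, with a threshold of 0.05. Standard errors were derived from the F statistic. Differences in shares were tested by exact two-sided permutation. The test was checked on simulated counts drawn independently per gene. None of the simulated libraries was made to stand apart, so the check does not cover such libraries. Alternatives were DESeq2 1.42.0, limma 3.58.1 on log2(RPKM + 0.1) and log2(RPKM + 1), library size alone, no filter, the longest transcript, only the groups compared, a replicate block, and leaving out each library or both preGM libraries that stood apart. Shares from RPKM of the principal transcript were added after seeing the data.

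The members and lists were chosen with earlier results of these data known. Values in every library are given for up to 6 members with the smallest p past the threshold per comparison, for the largest and smallest change in each MLL-ENL comparison, and for Psmb5, Psmb6, Psmb7, Psmd14, Psmc4, Psme1, Psme2, Psme4, Psmf1 and Psmg1. Other members and exons singled out in the text were chosen after their values were seen. Of the list of other proteasome and ubiquitin genes, 1 gene is counted but not reported by name here.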

Additional observations from a re-analysis of the deposited data

Results flagged for a closer look

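From HSC to preGM, the share of Psmb8 in Psmb5 + Psmb8 moved in opposite directions in the 2 genotypes: by -8.40 percentage points in WT and by 7.33 with MLL-ENL. Every preGM library lay below every HSC library in WT and above every HSC library with MLL-ENL. The difference between the 2 changes was not tested, nor was the part of mRNA length, which is longer for Psmb8 than for Psmb5.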

How the results depend on the processing

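The count of members called in HSC depended on which libraries set the spread: 3 were higher and 20 lower with only the groups compared, and 3 and 23 without both preGM libraries that stood apart. Without both libraries, the preGM response had 1 lower member, the interaction 13 higher and 1 lower, and the cell types 37 higher in WT and 1 lower with MLL-ENL. In that setting the interaction turned to 0.66 for Pomp and 0.64 for Psmb6, and the difference in the Psmb9 share in preGM was 2.55 points. DESeq2 called 1 member lower in preGM and 1 higher in the interaction, as did limma with a pseudocount of 0.1 in the interaction. Fewer members were higher between the cell types with library size alone in place of TMM (in WT, 8 higher and 3 lower) and with limma on RPKM, which changes the test, the unit and the scaling together (7 and 3 with a pseudocount of 0.1, and 7 and 2 with 1). With MLL-ENL, 11 were higher and 1 lower in each of the 3, and Ubqln1 in WT was -0.11 in each. The share of all genes is not given for the limma runs or for the lower calls with library size alone. Those counts show only how the calls varied. With the longest transcript, the Psmb9 share changed by -8.25 points in WT and -11.15 with MLL-ENL.

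Leaving out 1 library at a time gave 1 to 2 members higher and 0 to 1 lower in HSC, 1 to 2 higher and 0 lower in preGM, 0 to 1 higher and 0 to 1 lower in the interaction, 16 to 33 higher and 1 lower in WT cell types, and 27 to 37 higher and 0 to 1 lower with MLL-ENL. Same-numbered libraries did not visibly deviate together (correlations from -0.104 to 0.1), and differently numbered ones ran from -0.136 to 0.137. With 3 libraries per group and 2 that stood apart, this cannot settle whether the numbers pair them. With the replicate block, 21 members were higher in preGM than HSC in WT and 32 with MLL-ENL, 1 was higher in HSC and 1 in preGM, and 0 in the interaction. For this run and those leaving out 1 library, the share of all genes called is not given. Their counts show only how the calls varied. The remaining causes of these differences were not tested. With 3 libraries per group the spread between libraries, not depth, limits these tests, and for Psmb11 and Psme2b depth limits them too.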
